A study of Cercocebus atys with 16 samples.

Results

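Resting double-negative T cells of sooty mangabeys (Cercocebus atys) with low CD4 status were compared with those of animals with normal CD4 status. The comparison rests on the 4 arrays on which unstimulated RNA filled both channels, out of 16 arrays in the series, and was chosen by array title: FBR and FTV are titled Low, and FNV and FKN are titled Normal. All 4 animals carried SIV, the simian immunodeficiency virus, so an uninfected animal is not part of the comparison. Cells that were CD3+ and lacked CD4 and CD8 were taken from blood with magnetic beads, by removing CD4+, CD8+ and CD16+ cells and then selecting on CD3, at a stated purity above 98%, and were rested overnight. The other 12 arrays hold RNA of the same animals after stimulation with antibodies to CD3 and CD28, in both channels or against unstimulated RNA. The sources used here give neither the ages of the animals nor their CD4 counts.

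T cells that display CD3 with neither CD4 nor CD8 are a small part of blood T cells and include gamma delta cells, natural killer T cells and conventional alpha beta cells that lost their coreceptor. The sooty mangabey is a natural host of SIV and usually stays free of AIDS, even in animals in which CD4+ T cells become scarce. Double-negative T cells have been studied there as cells that can make cytokines usually made by CD4+ helper cells.

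Level means the log2 of normalised spot intensity, averaged over both channels of an animal's array, so that a step of 1 is a 2-fold difference. A feature is a gene, read by its brightest probe, or a probe without a gene name. Of 43603 distinct probes, 26736 were well above background in both channels of at least 2 of the 4 arrays, and these gave 21977 features, 8832 with a gene symbol and 13145 without. Y-linked genes and XIST were left out. The share of spots well above background was 52.0% in green and 59.7% in red on the array of FNV and 61.1% to 64.0% on the other 3. Each animal lay on a slide of its own, and the array of FNV was read on a different scanner at 5 rather than 3 microns per pixel, so a difference between FNV and the other animals cannot be told apart from slide and scanner. Differences of the low animals from FKN alone, the normal animal read together with FBR and FTV, are therefore given for most of the gene lists. Lower signal in RNA of a sorted population can come from fewer cells of a type or from less RNA per cell, which cannot be told apart here.

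The array was designed on the rhesus macaque, and its probes are 60 bases long. The probes below read 4 of the genes with the widest separation between the animals, and are shown so that the signal can be traced to a sequence. Positions are on rheMac2 as the array files give them, and the files do not say in which part of the gene a probe lies.
LYZ, plus strand of chr11:66347924-66347983: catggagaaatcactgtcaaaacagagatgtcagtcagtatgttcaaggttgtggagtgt
FCN1, plus strand of chr15:3386243-3386302: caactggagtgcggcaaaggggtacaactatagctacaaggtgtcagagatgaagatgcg
VMO1, minus strand of chr16:4575416-4575475: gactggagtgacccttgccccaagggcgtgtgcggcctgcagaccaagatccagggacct
CCL3, minus strand of chr16:31376988-31377047: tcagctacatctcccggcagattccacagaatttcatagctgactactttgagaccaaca
The printed LYZ probe had a level of 15.69 in FNV, 11.78 in FKN, 9.42 in FBR and 9.62 in FTV. The CCL3 probe ran the other way, from 9.62 in FNV and 10.63 in FKN to 12.04 in FBR and 13.41 in FTV.

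Over all features, CD4 status did not order the animals. The 2 normal animals differed from each other with an SD of 0.78 (log2), and 15.8% of features lay more than 1 log2 apart. FNV differed from FBR with an SD of 0.83 and from FTV with an SD of 0.88, hardly more than from its own group. The closest pair crossed the groups: FKN and FBR differed with an SD of 0.29, and 1.09% of features lay more than 1 log2 apart. FTV differed from FKN with an SD of 0.43 and from FBR, the other low animal, with an SD of 0.44. The 2 channels of an array, which hold the same RNA, differed with an SD of 0.11 to 0.15; that spread holds no part from slide to slide. FNV was the highest animal for 41.3% of features and the lowest for 40.7%.

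**Figure D1:**
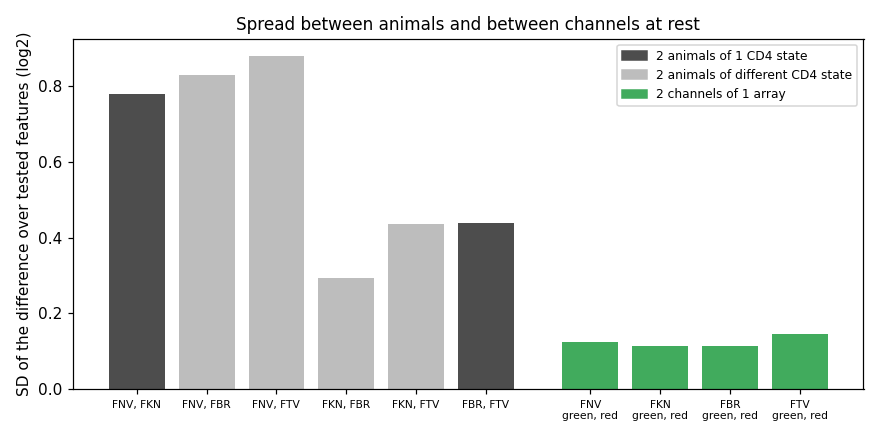
Each bar is the SD over 21977 features of the difference in log2 level, for each pair of animals (dark grey for the same CD4 status, light grey for different status) and for the green and red channels of each array (green bars). FKN and FBR, of different status, are the closest pair at 0.29, and the pairs with FNV reach 0.78 to 0.88.

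The first question was which features differ between the groups by a test across all features. With limma's lmFit and eBayes on 2 animals against 2 and Benjamini-Hochberg adjustment, 0 of 21977 features passed an adjusted p of 0.05 (0% called), and 398 (1.81%) had an unadjusted p under 0.05. The smallest adjusted p was 0.351. For a single feature, an exact permutation test of 2 against 2 cannot give a two-sided p below 0.33. The groups are therefore described by which features have both low animals on the same side of both normal animals, and by the gap, the distance between the nearest animals of the 2 groups. Both low animals lay above both normal animals for 3662 features (16.7%) and below both for 3774 (17.2%), together 33.8%. Labels placed at random on the 4 animals would separate the 2 groups with a probability of 0.33 per feature, close to that 33.8%. The gap was at least 1 log2 for 10 features on the higher side (0.0455%) and for 36 on the lower side (0.164%). Without FTV these numbers were 43 and 88, without FBR 375 and 120, without FKN 1520 and 1309 and without FNV 30 and 65. Leaving out an animal removes a condition to be met, which can only raise these numbers. They were largest without FKN, which left FNV, the animal read on a different scanner, as the only normal one.

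The 15 named genes with the widest gap below the normal animals included 2 members of the monocyte list, LYZ and FCN1, and several enzymes. LYZ, lysozyme, an enzyme of myeloid cells that breaks bacterial walls, had a level of 16.31 in FNV, 12.70 in FKN, 10.51 in FBR and 10.60 in FTV, 15.4-fold lower in the low animals with a limma p of 0.0198. FNV stood far above the rest, and FKN lay between it and the low animals. FCN1, ficolin-1, a lectin secreted by monocytes, was at 8.79, 8.64, 6.80 and 7.07 in FNV, FKN, FBR and FTV. Here the 2 normal animals were alike, and the low animals were 3.45-fold lower (SE 0.247 log2, limma p 0.000802). RETN, the secreted protein resistin, which macrophages make in primates, was at 11.49, 9.21, 7.66 and 6.93 in the same order. CHIT1, a chitin-splitting enzyme of macrophages, was at 9.18, 8.24, 6.76 and 6.75. GPNMB, a membrane glycoprotein of macrophages, was at 11.57, 8.63, 6.65 and 6.81. In these 3 genes FNV was the highest animal and FKN lay between it and both low animals. The low animals' levels of GPNMB and CHIT1 were close to the lowest level that counts as well above background, which was 6.41 to 6.50.

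FNV was again above FKN, and FKN above both low animals, in enzymes and small regulators. ALDH1A1, which oxidises retinaldehyde to retinoic acid, was at 11.88, 9.47, 6.96 and 7.40 in FNV, FKN, FBR and FTV. Its second probe on the array gave 11.42, 8.56, 6.69 and 7.04. AKR1C3 and AKR1C1 are aldo-keto reductases that act on steroids and other carbonyls, and they read 13.79, 12.22, 10.51 and 10.60, and 11.81, 9.78, 8.22 and 8.17. CYP27A1, a mitochondrial sterol hydroxylase, was at 14.66, 12.06, 10.58 and 9.85. LTB4DH, now called PTGR1, inactivates leukotriene B4, and was at 12.71, 12.05, 9.68 and 10.56. All 6 other LTB4DH probes also placed both low animals below both normal ones. CSTA, cystatin A, an inhibitor of cysteine proteases, was at 14.06, 11.77, 9.74 and 10.08. NUPR1, a small stress-induced nuclear protein, was at 13.04, 10.46, 8.96 and 8.55.

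In 3 other genes of this set the 2 normal animals were close to each other. VMO1, vitelline membrane outer layer 1 homolog, was at 10.63, 10.26, 7.38 and 8.05 in FNV, FKN, FBR and FTV, 6.65-fold lower in the low animals (SE 0.33 log2, limma p 0.000445). TBC1D4, a GTPase-activating protein that controls glucose transporter traffic, was at 10.44, 10.13, 8.42 and 8.22, with a second probe at 8.59, 7.76, 6.94 and 6.88. The single probe named for EEF1D, a subunit of the translation elongation factor, had the widest gap of all named genes, 2.70, with levels of 12.18, 12.02, 8.39 and 9.32. The files give it that name and describe it as a macaque cDNA highly similar to human EEF1D. FNV was above FKN in all 15 genes of this set.

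The 15 named genes with the widest gap above the normal animals were led by a chemokine and included inducers and targets of inflammation and interferon. CCL3, a chemokine that draws leukocytes to inflamed tissue, was at 13.09 in FNV, 13.31 in FKN, 14.55 in FBR and 15.76 in FTV, 3.87-fold higher in the low animals with an SE of 0.450 (log2) and a limma p of 0.00747. All 4 other CCL3 probes gave the same order of groups. CXCL8, the interleukin 8 chemokine that draws neutrophils, was at 10.43, 10.67, 11.72 and 12.38 in FNV, FKN, FBR and FTV. IL1B, the inflammatory cytokine interleukin 1 beta, was at 6.64, 7.43, 8.58 and 8.41, and was well above background in 2 of 4 channels of the normal animals. The normal animals were close to each other in CCL3 and CXCL8, and FTV was the highest animal in both.

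Receptors and their adaptors followed. IL18RAP, the signalling chain of the interleukin 18 receptor, was at 9.09, 9.26, 10.22 and 10.71 in FNV, FKN, FBR and FTV. HCST, also called DAP10, the adaptor through which the receptor NKG2D signals, was at 9.17, 9.79, 10.53 and 11.33. NFKBIZ, an inducible nuclear regulator of NF-kB, was at 8.90, 9.47, 10.18 and 10.52. LCN2, lipocalin 2, which binds bacterial iron carriers, was at 10.56, 10.87, 11.89 and 11.91. FTV was above FBR in the first 3 of these, and the low animals were alike on this LCN2 probe but not on the second, at 8.04, 7.84, 9.27 and 10.57.

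The set held IFI27 and IFI6 from the list of genes induced by type I interferon. IFI27 was at 8.62, 8.85, 9.93 and 10.38 in FNV, FKN, FBR and FTV, 2.68-fold higher in the low animals (SE 0.278 log2, limma p 0.00376). IFI6, named 6-16 in the files, spread more, at 11.11, 12.28, 13.08 and 15.41. UBD, a ubiquitin-like modifier induced by interferon gamma and TNF and named here by similarity to the human gene, was at 7.82, 8.31, 9.23 and 9.35. RC3H1, the RNA-binding protein roquin-1, which promotes decay of ICOS and TNF mRNA, was at 7.15, 9.03, 10.01 and 11.18. The set also held TESC at 11.77, 12.24, 12.96 and 13.79, SPATS2L at 8.50, 9.13, 9.94 and 11.25, HEXDC at 8.43, 8.46, 9.32 and 9.33, and D4S234E at 6.92, 7.56, 8.64 and 8.26. The gaps on this side, 0.70 to 1.24, were narrower than the 1.47 to 2.70 on the lower side.

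**Figure D2:**
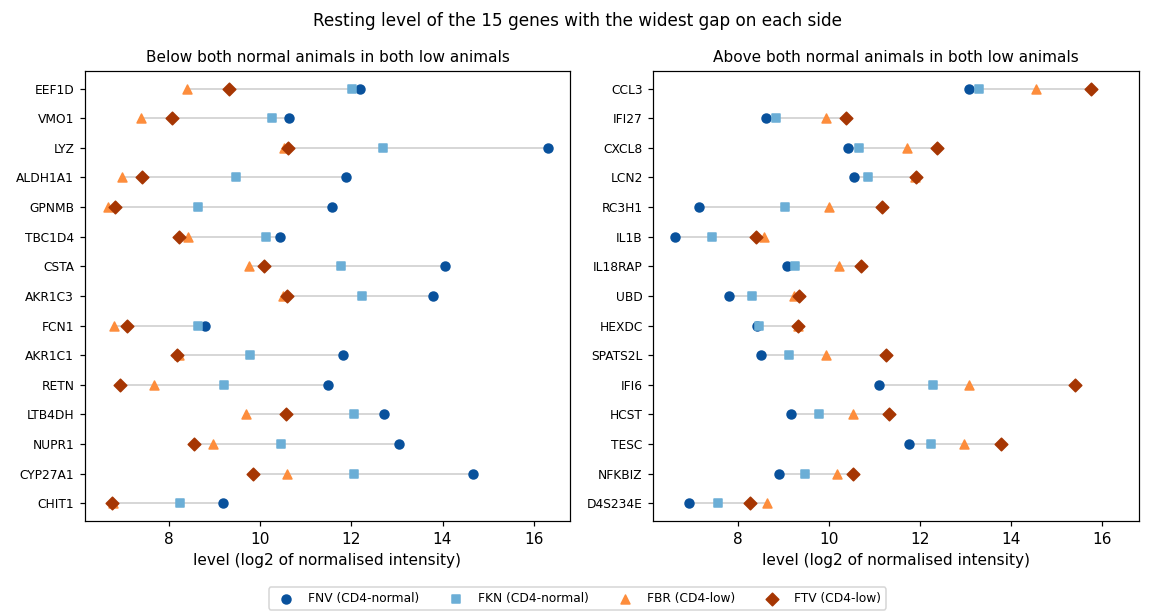
Resting log2 level of each animal for the 15 named genes with the widest gap on each side, with dark and light blue for the normal animals FNV and FKN and light and dark orange for the low animals FBR and FTV. On the left LYZ runs from 16.31 in FNV to 10.51 in FBR, and on the right CCL3 runs from 13.09 in FNV to 15.76 in FTV.

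The labelled cell type was checked against marker lists. Of 15 T cell genes 12 were measured, and all 12 were lowest in FNV: CD3D was at 13.97 in FNV, 14.93 in FKN and 14.63 in FTV and highest in FBR, and CD3E was at 12.11, 13.33, 13.18 and 13.36 in FNV, FKN, FBR and FTV. CD3G was at 10.65, 11.55, 11.91 and 11.97, and the T cell receptor beta constant probe at 14.24, 15.26, 15.16 and 15.82. The list's median difference was 0.60, and -0.04 against FKN alone. The groups overlapped in CD4, at 9.60, 9.25, 9.62 and 9.24, and in CD8B, at 8.30, 7.35, 7.44 and 7.25, highest in FNV, while CD8A is not analysed here. The probe on a delta chain mRNA was at 8.65, 7.35, 7.37 and 7.13, and the gamma chain probe at 8.17, 8.87, 8.76 and 10.29, highest in FTV. The 3 CD3 genes were well above background in all 4 animals, CD28 was not in 1 channel of the normal animals, and TRAC and TRBC2 are not analysed here.

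Markers of other cells differed between animals as well. Of the 16 monocyte genes measured, 13 were highest in FNV. The log2 of the list's summed level was 17.00 and 14.11 in the normal animals and 13.74 and 14.22 in the low ones. Both low animals were below both normal ones for 6 genes (17.2% of all features were) and above for CLEC7A, a fungal wall receptor. CLEC7A was not well above background in any channel of the normal animals and was at least 1.70-fold higher in the low ones. That rise was not repeated on the arrays that set the same unstimulated RNA against stimulated RNA. There CLEC7A was at 6.41, 6.41, 6.45 and 6.43 in FNV, FKN, FBR and FTV, near the lowest level well above background. Besides LYZ and FCN1, the 6 were AIF1, CSF1R, MS4A7 and VCAN. AIF1, an actin-binding protein of macrophages, was at 10.02, 7.72, 6.64 and 6.75 in FNV, FKN, FBR and FTV, and CSF1R, the receptor that keeps monocytes alive, at 9.94, 8.07, 7.53 and 6.83. CD14, the lipopolysaccharide coreceptor, overlapped, at 11.71, 10.29, 10.52 and 10.76. CD163, a scavenger receptor, was at 13.58 in FNV but at 9.17, 9.66 and 7.72 in the others. The list's median difference was -1.15 with all animals, beside -0.01 over all features, and 0.06 against FKN alone. The part that monocyte RNA has in the lower levels of the leading myeloid genes was not tested.

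Of the 12 B cell genes measured, 10 had both low animals below both normal ones (17.2% of all features did) and 0 had them above. VPREB3, counted among the 10, was not well above background in any channel of the low animals. CD79B, a signalling chain of the B cell receptor, was at 13.41, 11.39, 10.77 and 10.54 in FNV, FKN, FBR and FTV. MS4A1, which encodes CD20, was at 10.14, 8.50, 8.46 and 8.08, and CD79A was at 6.96, 7.19, 6.91 and 6.85. The median difference was -0.67, and -0.28 against FKN alone, where 10 of 12 genes lay below (30.0% of all features did without FNV). The summed level was 14.56 and 13.16 (log2) in the normal animals and 12.78 and 12.46 in the low ones. Dendritic cell genes had 4 of 7 below, with a median difference of -0.35, and -0.09 against FKN alone. CD1C, a lipid-presenting molecule, was at 8.52 and 7.30 in the normal animals and 6.57 and 6.59 in the low ones. It was well above background in 4 of 4 channels of the normal animals and in 1 of 4 of the low ones.

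Of 8 natural killer genes measured, 3 lay below (17.2% of all features did) and 0 above, and KLRF1 did not pass the filter. The 3 were KLRC1, KIR3DL1 and NCAM1, with gaps of 0.27, 0.09 and 0.03. KLRC1 was not well above background in any channel of the low animals, and its groups overlapped on the other arrays of the same unstimulated RNA. KLRD1, the CD94 chain, was at 7.65, 7.12, 6.73 and 12.09, high in FTV only among these 4 animals. The platelet chemokine PPBP was at 8.88, 9.79, 8.39 and 8.95, highest in FKN. HBB, beta globin, was at 8.80 in FNV and at 13.55, 12.93 and 14.65 in FKN, FBR and FTV. The natural killer list summed to 13.43 and 11.33 (log2) in the normal animals and 10.91 and 12.97 in the low ones, the platelet list to 11.03 and 11.84 against 10.80 and 11.02, and the red cell list to 12.62 and 14.89 against 14.74 and 15.46. What these cells contributed to the differences between groups was not tested.

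Genes of antigen presentation were counted by class. Of the 9 class II genes measured, 5 had both low animals below (17.2% of all features did) and 0 above, with a median difference of -0.66, and -0.21 against FKN alone. HLA-DRB1, the brightest probe for a class II beta chain, named MAMU-DRB in the files, was at 15.27, 13.68, 12.64 and 13.02 in FNV, FKN, FBR and FTV, and HLA-DPA1 (MAMU-DPA1) at 9.38, 10.96, 8.85 and 7.92. The invariant chain CD74 overlapped, at 11.31, 11.05, 10.72 and 11.15. Of 13 class I pathway genes, 4 had both low animals above (16.7% of all features did) and 0 below, with a median difference of 0.28, and 0.08 against FKN alone. Beta 2 microglobulin, B2M, the shared light chain of class I, was at 16.41, 16.70, 16.99 and 17.18, a gap of 0.29. The other class I genes above had gaps of 0.05 or less, smaller than the SD between the 2 channels of any array. Their groups overlapped on the other arrays of the same unstimulated RNA. In class I FNV was the lowest animal for 8 of the 13 genes, and in class II it was the highest for 8 of the 9.

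The array carries many probes for single macaque class I alleles, and these spread widely between animals. Over 58 class I probes whose description names an allele, the median range between the highest and lowest animal was 2.74 (log2), beside 1.33 over 71 class I probes without an allele name and 0.65 over all 26736 probes that passed the filter. The widest gap of any feature on the array was in this set. The probe described as the allele Mamu-A1*01808 was at 6.51 in FNV, 6.87 in FKN, 10.86 in FBR and 10.85 in FTV, with a gap of 3.98 and 17.9-fold higher in the low animals (limma unadjusted p 1.6e-05, adjusted p 0.351). It was well above background in 2 of 4 channels of the normal animals and in 4 of 4 of the low ones. It was singled out after its values had been seen.

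Its sequence and those of 3 Mamu-A probes over the same stretch are given here because their signals part the animals differently. Capitals mark the bases that differ from the first probe where the 2 overlap.
Mamu-A1*01808 probe, listed as unmapped: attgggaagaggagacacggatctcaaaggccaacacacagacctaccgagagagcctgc
Mamu-A1*4101-like probe, listed as unmapped: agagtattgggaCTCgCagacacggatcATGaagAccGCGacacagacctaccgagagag
Mamu-A*nov010 probe, minus strand of chr4:29519795-29519846: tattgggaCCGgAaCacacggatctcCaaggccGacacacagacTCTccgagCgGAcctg
MAMU-A reference probe, minus strand of chr4:29519787-29519846: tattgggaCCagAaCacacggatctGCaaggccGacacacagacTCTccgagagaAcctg
The second probe differs from the first at 11 of 55 shared bases and was at 6.69, 7.90, 9.66 and 11.22 in FNV, FKN, FBR and FTV. The Mamu-A*nov010 probe differs at 13 of 59 and was at 8.79, 12.57, 12.69 and 13.28. The MAMU-A reference probe differs at 11 of 59 and was at 6.46, 11.26, 10.91 and 11.59. The first probe separated both low from both normal animals, and the last separated FNV from the other 3. The brightest MAMU-A probe, by contrast, was at 16.65, 17.21, 17.01 and 17.40. Which alleles these mangabeys carry was not measured.

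**Figure D3:**
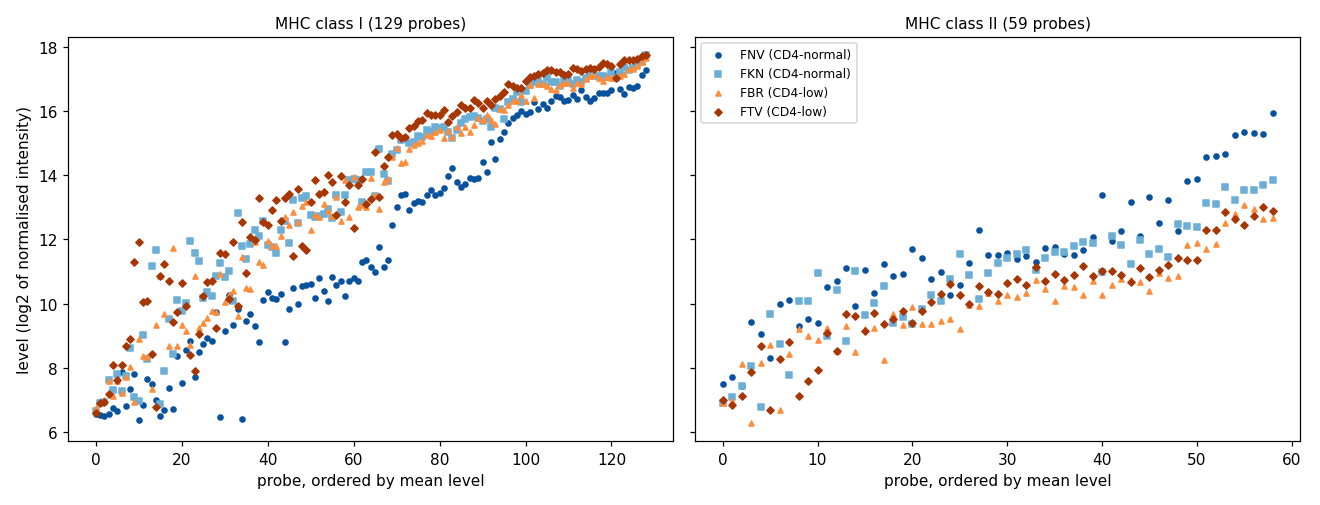
Log2 level of each animal on 129 class I probes and 59 class II probes that passed the filter, ordered by mean level, with the normal animals in blue and the low animals in orange. On class I probes FNV often lies below the other 3 animals, with a spread of up to 6.14 (log2) on a single probe. Both low animals lie below both normal ones on 44 of the 59 class II probes (32 of 40 without and 12 of 19 with an allele name). Over all 26736 probes that passed the filter, they do so on 4468.

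Genes induced by type I interferon, an early antiviral signal, were measured for 35 of 40 list members. Both low animals lay above both normal animals for 14 of the 35 (16.7% of all features did) and below for 0. The median difference was 1.19, beside -0.01 over all features, and 0.83 against FKN alone. MX1, a GTPase that blocks viral ribonucleoproteins, was at 12.86, 13.01, 13.56 and 15.02 in FNV, FKN, FBR and FTV. OAS2, an enzyme that makes the activator of RNase L, was at 6.71, 8.52, 9.11 and 10.62, and was well above background in 3 of 4 channels of the normal animals. IFIT1, which binds viral RNA caps, was at 10.67, 11.71, 11.82 and 14.56. ISG15, a ubiquitin-like modifier, overlapped, at 11.78, 13.99, 12.85 and 16.07. FTV was the highest animal for 34 of the 35, FNV the lowest for 27, and FKN and FBR lay close together. On the array of FNV 28 of the 35 were well above background in both channels, and on each other array all 35. Without FTV, FBR was above both normal animals for 14 genes and below both for 4 (31.4% and 26.4% of all features were, without FTV), and the median difference was 0.43, so the size of the shift rests on FTV.

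Restriction factors, host proteins that block retroviruses, gave 6 of 16 above (16.7% of all features were) and 2 below (17.2% were). Their median difference was 0.67, and 0.33 against FKN alone. FTV was the highest animal for 13 of the 16. Without FTV, FBR was above both normal animals for 6 genes and below both for 3 (31.4% and 26.4% of all features were). APOBEC3C, a cytidine deaminase, was at 7.50, 8.92, 9.38 and 10.35 in FNV, FKN, FBR and FTV. TRIM5, which binds incoming capsids, was at 10.55 in FNV, 10.90 in FKN and 12.30 in FTV, with FBR just above FKN. SAMHD1, a nucleotide hydrolase, was below in both low animals, at 9.39, 9.10, 8.74 and 8.97.

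Cytotoxic genes were measured for 18 of 21 list members, and 4 had both low animals above both normal ones and 0 below, a share of 22.2% above beside 16.7% of all features. Besides CCL3 these were GZMB, CCL4 and NKG7. GZMB, granzyme B, the protease that starts apoptosis in target cells, was at 11.97, 12.26, 12.86 and 16.13 in FNV, FKN, FBR and FTV. FBR exceeded FKN by 0.60 and FTV exceeded FBR by 3.27. CCL4, a chemokine akin to CCL3 that was read by probes named CCL4 and CCL4L1, near-identical copies, was at 12.42, 11.92, 12.91 and 14.00. PRF1, the pore-forming perforin, overlapped, at 10.66, 10.93, 9.70 and 14.53, as did granzyme H, GZMH, at 9.79, 9.70, 8.55 and 15.22. FTV was the highest animal for 14 of the 18, and FBR was below both normal animals for 9 of them (26.4% of all features were, without FTV). The median difference of 0.84 became -0.28 without FTV, and was 0.875 against FKN alone.

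**Figure D4:**
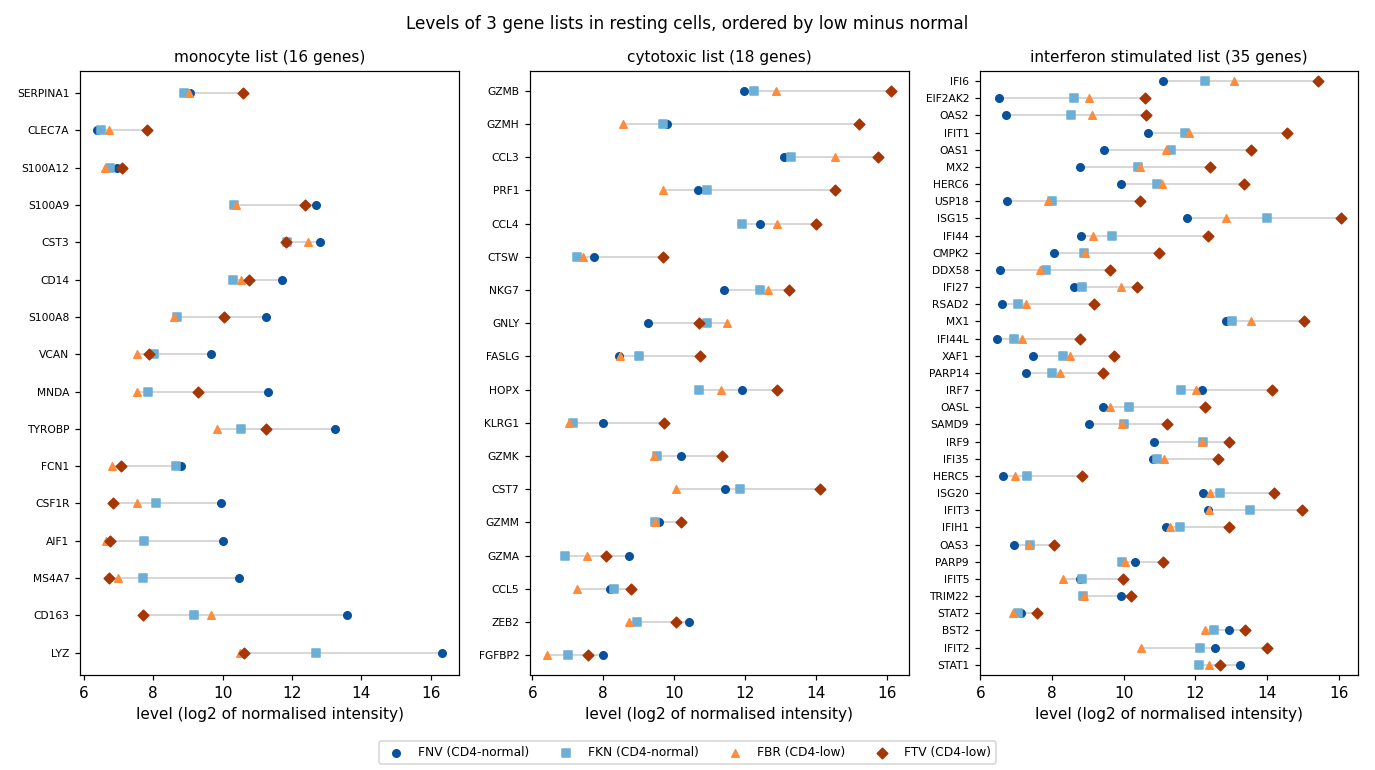
Resting log2 level of each animal for the measured genes of the monocyte, cytotoxic and interferon-stimulated lists, ordered by low minus normal, with the normal animals in blue and the low animals in orange. FNV is the highest animal for 13 of 16 monocyte genes, and FTV is the highest for 14 of 18 cytotoxic and 34 of 35 interferon-stimulated genes.

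Of 20 chemokines, 8 lay above (16.7% of all features did) and 2 below. The list's median difference was -0.06 with all animals and 0.37 against FKN alone, so its sign turned without FNV. The 2 below were CCL17 and CCL18, which macrophages and dendritic cells make, with CCL17 at 9.17, 7.92, 6.86 and 6.55 in FNV, FKN, FBR and FTV. Of 19 NF-kB pathway genes, 9 lay above and 1 below, with a median difference of 0.53. NFKB2, which encodes a precursor subunit, was at 8.30, 9.05, 9.56 and 9.72, and IER3, an early response gene, at 8.68 in FNV, 8.66 in FKN and 9.38 in FBR and highest in FTV. FAS, the death receptor, counted among the activation genes, was at 9.41, 9.85, 10.38 and 10.99. Against FKN alone, 13 of the 19 NF-kB genes were above (28.7% of all features were, without FNV), and the median was 0.35.

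Of 13 Th17 genes, 3 lay above and 1 below, a share of 23.1% above beside 16.7% of all features. Their median difference was 0.37, and -0.05 against FKN alone. IL17F, a cytokine of Th17 cells, was at 8.51, 11.52, 12.94 and 9.35 in FNV, FKN, FBR and FTV, highest in FBR. IL22 was at 9.35, 9.54, 11.02 and 7.38, with FBR highest and FTV lowest. Of 14 Th1 genes, 3 lay above and 0 below, a share of 21.4% above, with a median difference of 0.29, and 0.13 against FKN alone. The 3 were CXCR3, IL12RB1 and TBX21, with gaps of 0.041 or less, smaller than the SD between the 2 channels of any array. Their groups overlapped on the other arrays of the same unstimulated RNA. The lineage factor TBX21 was at 9.84, 9.88, 9.92 and 10.38. The regulatory factor FOXP3 was at 7.04, 7.77, 7.06 and 7.75, the same range in both groups.

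Of 18 cell cycle genes, 11 had both low animals below both normal ones (17.2% of all features did) and 0 above (16.7% did). FNV was the highest animal for 15 of these genes. Their median difference was -0.41, and -0.22 against FKN alone. TOP2A, a topoisomerase of dividing cells, was at 8.18, 8.01, 7.56 and 7.36 in FNV, FKN, FBR and FTV, and MCM6, a subunit of the replicative helicase, at 11.13, 10.71, 10.37 and 10.39. Of 48 oxidative phosphorylation genes, 18 (37.5%) lay below and 2 (4.17%) above, with a median difference of -0.24, and -0.14 against FKN alone. ATP5J, a subunit of ATP synthase, was at 14.01, 13.81, 13.56 and 12.96, 1.57-fold lower in the low animals (limma p 0.0859). Of 20 glycolysis genes, 2 lay above and 2 below, with a median difference of 0.02, and of 15 cholesterol genes 1 and 1, with -0.06. The median was within 0.03 of 0 for 42 ribosomal protein genes, at -0.03, of which 7 (16.7%) lay below and 3 (7.14%) above. Of 17 genes of common gamma chain cytokine signalling, 6 (35.3%) lay above and 2 (11.8%) below, with a median difference of 0.41, and 0.13 against FKN alone. IL7R, a chain of the interleukin 7 receptor, was above, at 10.30, 12.79, 13.17 and 13.65 in FNV, FKN, FBR and FTV. The 2 below were CISH and SOCS2, feedback inhibitors of cytokine receptors, with CISH at 12.45, 11.20, 10.28 and 9.79.

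**Figure D5:**
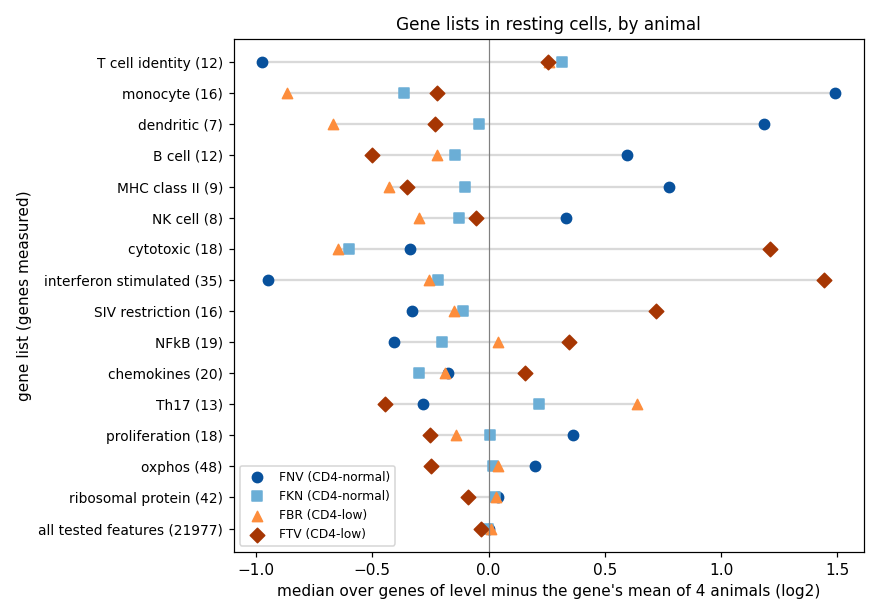
Each point is the median over a list's measured genes of the animal's log2 level minus the gene's mean of 4 animals, for 15 lists and all features. FNV is apart at -0.97 on the T cell list and 1.49 on the monocyte list, and FTV at 1.21 on the cytotoxic and 1.44 on the interferon-stimulated list, while FKN and FBR lie near each other on most lists.

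The unstimulated RNA of each animal was also hybridised on 2 further arrays, against stimulated RNA. On those channels all 15 leading genes of each side again had both low animals on the same side (15.1% of all features lay above and 18.7% below there). These arrays share the RNA and so repeat the measurement, not the animals. The self-self and the other level of an animal differed with an SD of 0.16 in FNV and 0.08 to 0.10 in the other 3. In stimulated cells of the same animals, all 15 genes of the lower set and 13 of the higher set kept the side (16.6% and 18.4% of all features lay below and above), and CCL3 and IFI27 overlapped. LYZ was at 14.96, 11.94, 10.54 and 10.30 in FNV, FKN, FBR and FTV there, and IFI6 at 10.34, 12.25, 12.55 and 14.85.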

How the data were processed

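The authors deposited scanner output of 2-colour arrays: spot intensity on a linear scale, not normalised, as written by version 10.7.3.1 of Agilent's Feature Extraction software, per the file headers. In R 4.3.3 with limma 3.58.1, mean signals were corrected with normexp (offset 50), normalised by loess within arrays and Aquantile over all 16 arrays, and averaged over both channels as log2 levels computed here from the deposited intensity. Outlier and control spots were left out and no spot was saturated. A feature had to be well above background in both channels of at least 2 of the 4 arrays, and the brightest probe stood for a gene. Figures used Python 3.11.15 and matplotlib 3.10.9.

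Groups followed the array titles. Tests were two-sided limma fits (prior degrees of freedom 2.98, residual 2). Their p-values and SEs rest on the spread of 2 animals a group, drawn toward a common value estimated over all features. Code was tested on simulated data. The members, the 41 gene lists (548 of 750 genes measured) and the tests were chosen with earlier results of these data known. Named genes come from the 15 with the widest gap on each side, the 3 widest in each list and a fixed set of markers. CCL18, CD163, CD28, CD74, CLEC7A, CSF1R, FOXP3, GZMH, IFIT1, IL17F and IL22 lie outside this rule. So do ISG15, KLRD1, MS4A7, MX1, NKG7, PRF1, TRIM5, VCAN, VPREB3 and the T cell receptor beta and gamma chain probes. The Mamu-A probes and the unnamed probe and genes of the closing section also lie outside it. All of these were chosen after their values were seen. Symbols came from the newer annotation edition of the array, its descriptions or the older edition; 38 probes were named from a description phrase, some of which say only that the transcript is like the gene, after the values had been seen. A fold called at least a size compares the brighter group with the lowest level well above background. Alternatives changed the background correction, normalisation, filter, channels, arrays, animals, scan batch and variance model.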

Additional observations from a re-analysis of the deposited data

How the results depend on the processing

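The 0 features past limma's adjusted threshold remained 0 under the alternatives run except the fit of resting and stimulated arrays with the animal as a random block, which called 1, the Mamu-A1*01808 probe. Counts at an unadjusted p under 0.05 were 398 at first, 765 with no filter, 605 in that block fit, and 137 to 7297 without an animal. Features above both normal animals numbered 2386 with 75th percentile centring, which moved the median of all features to -0.17, 2298 when all 4 arrays had to be above background, 5589 with no filter and 6297 to 9388 without an animal; those below numbered 6393 with no filter and 5806 to 9602 without an animal. Gaps of at least 1 above numbered 82 with the scanner's processed signals, 16 with every probe and 30 to 1520 without an animal, and gaps below 190 with processed signals and 65 to 1309 without an animal. The monocyte median difference was 0.06 with scan batch as a term and ran from -1.93 to 0.06 without an animal, the cytotoxic from -0.28 to 1.71, the interferon-stimulated from 0.43 to 2.04, and the activation list's, -0.03 at first, from -0.06 to 0.14, with the sign turned without FKN (0.09), FBR (0.14) or FTV (0.02); the cause was not tested. Of 1913 values of named genes under alternatives, 1833 moved by less than the spread between animals, 80 by more, and 0 of those whose groups did not overlap changed sign. No paired analysis was possible because the replicate numbers name different animals in the 2 groups and each animal has its own slide. Having 2 animals a group and dim signal on the array of FNV limit precision.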

Other observations

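The probe A_01_P1786441, described in the files as unknown, was at 11.75 in FNV, 12.96 in FKN, 8.61 in FBR and 8.43 in FTV, a gap of 3.14 and wider than that of any named gene. GNG11, a G protein subunit found in platelets, was at 9.77, 10.42, 8.86 and 9.24 in FNV, FKN, FBR and FTV, the only 1 of 7 platelet genes whose groups did not overlap. JCHAIN, the joining chain of secreted immunoglobulins, was at 11.41 in FNV beside 7.33, 7.01 and 7.19 in FKN, FBR and FTV. LILRA4, a receptor of plasmacytoid dendritic cells, was at 12.18 in FNV and at 8.25, 7.98 and 8.97 in the other 3. CD83, a marker of mature dendritic cells and activated lymphocytes, paired FNV with FTV, at 14.89 and 14.40 beside 12.76 in both FKN and FBR.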
